A study of Mus musculus with 12 samples.

Results

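The colon of ATF6a knockout mice was compared with and without dextran sulfate sodium (DSS), on 4 arrays picked by their genotype and treatment labels out of the 12 in the series. The untreated group (UT) and the DSS group each had 2 arrays of male C57BL/6J mice of the genotype ATF6aKO, and the DSS mice drank water with 3% DSS over 3 days. The arrays are called UT 1, UT 2, DSS 1 and DSS 2, after the replicate numbers of the labels. The other 8 arrays of the series, from WT and ATF6bKO mice of the same strain and sex, were 2 labelled UT and 2 labelled DSS of each genotype, the ATF6bKO mice with 3% DSS over 3 days as well. They entered the fit for their spread, and the 4 of ATF6bKO, a knockout of the related Atf6b, also served as the comparison at the end. All measurements were of total RNA from snap-frozen colon, so every value is a mean over epithelium, stroma, muscle and blood-borne cells. How the knockout was made, whether any tissue retains the gene, the age of the mice, the hour of collection and the number of animals behind each array were not stated in the labels. No label ties the 2 arrays of a group to different animals, and the p-values therefore reflect the scatter of these samples alone, part of which may be technical.

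ATF6a, encoded by Atf6, is a membrane protein of the endoplasmic reticulum (ER), the compartment in which secreted and membrane proteins fold. When unfolded proteins accumulate it moves to the Golgi, is cut by proteases, and its freed cytoplasmic part enters the nucleus and activates genes for chaperones and for the degradation of misfolded proteins, through a promoter sequence called the ER stress response element (ERSE). DSS is a sulfated polymer that injures the epithelium of the colon, opens the mucosa to bacteria and draws in neutrophils and monocytes, and the colon is a tissue with many secretory cells whose ER is heavily used. The comparison asks which genes changed with DSS when ATF6a was missing.

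A level here is the base 2 logarithm of a probe's signal relative to the 75th percentile signal of its array, so that 0 is a probe as bright as that percentile and the dimmest probes above background lay near -6. A change is the mean level of the DSS arrays minus that of the UT arrays, in log2 units, so that 1 is a doubling. A gene is said to have risen or fallen only where its p-value, adjusted over all 23352 genes tested, was under 0.05. The knockout was visible in every library of its label. Atf6 stood at -3.23 and -3.04 in UT and -3.08 and -3.23 in DSS, while its level lay between 0.60 and 1.22 on the 8 arrays of the other genotypes. Atf6 was about as low with DSS as without it (log2 -0.03, SE 0.17, adjusted p = 0.946). Atf6b, which encodes the related protein ATF6b, stood at -0.01 and -0.07 in UT and -0.14 and 0.08 in DSS (log2 0.01, SE 0.91, adjusted p = 0.997). These 4 values were close, and the wide error is drawn from the spread of all 12 arrays. Atf6b ran from -7.64 to -4.14 on the ATF6bKO arrays. The 2 Atf6 probes did not change in the same direction, and values are those of the brighter. Where the Atf6 probe lies relative to the deleted part of the gene was not examined here.

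The 4 arrays shared a scan, and their signals were similar. Their 75th percentile signals ran from 450 to 621, and 27678 to 28868 of their probes were well above background. Across all genes the arrays of UT correlated at 0.992 and those of DSS at 0.991, while the correlations across treatments were 0.974 to 0.980. Markers of colonic epithelium and muscle were bright on all 4 arrays: the brush border protein Vil1 stood at 6.00 and 6.16 in UT and 6.26 and 6.30 in DSS and the smooth muscle actin Acta2 at 7.44 and 7.41 in UT and 8.10 and 8.05 in DSS. A few cell types differed between arrays of the same group. The summed level of 8 adipocyte markers was 5.03 and 5.42 in UT, 4.75 in DSS 1 and 6.72 in DSS 2. The part of adipose tissue in the results was not tested. B cell genes differed between the UT arrays, with the B cell membrane protein Ms4a1 at -2.32 and -0.02 in UT and 0.85 and -0.33 in DSS. Between the arrays of a group the median gene differed by 0.188 in UT and 0.173 in DSS, against a median size of 0.335 for the change with DSS.

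DSS changed 1487 of the 23352 genes in ATF6aKO colon (6.37%), of which 676 rose (2.89%) and 811 fell (3.47%). Before adjustment, 5574 of the 23352 genes had a limma p under 0.05, in either direction. At least a doubling was found in 488 of the rises and at least a halving in 567 of the falls, and the smallest change that passed was 0.58. Genes with no overlap between the 2 groups made up 67.2% of all genes tested, so a lack of overlap by itself is common here. Of the 1487 genes called, 0 had groups that overlapped, so a lack of overlap adds nothing to a call. The median change of all genes was 0.04, with quartiles of -0.27 and 0.40. Rises were larger on DSS 1 than on DSS 2 (median 1.39 against 1.12), and 530 of the 676 were higher on DSS 1, while falls were of similar size on both (median -1.26 and -1.23). The number of calls leaned on every array of the comparison: limma called 190 genes without UT 1, 213 without UT 2, 183 without DSS 1 and 447 without DSS 2, the array left alone in its group being assumed to vary like the others. It also depended on arrays of the other genotypes, since without either array titled WT UT 3480 genes were called, and without all 4 WT arrays 2926. The 94 genes called under all 12 omissions of an array comprised 30 rises and 64 falls. Scaled to each array's median in place of its 75th percentile, the split moved from 45.5% rises to 29.5% and the median change of all genes to -0.11, while normexp background correction gave a median of 0.13.

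Among the 15 largest rises were genes known from macrophages and neutrophils and a matrix protease. Chil3, a chitinase-like lectin of activated macrophages, stood at -3.0 and -4.94 in UT and 0.75 and -0.23 in DSS. The UT arrays differed widely, yet both DSS arrays lay well above them (log2 4.23, SE 0.62, adjusted p = 0.0106). S100a9, a subunit of the neutrophil protein calprotectin, stood at -3.16 and -3.49 in UT and 0.95 and 0.69 in DSS and rose by 4.15 (SE 0.59, adjusted p = 0.01), and its partner S100a8 at -4.97 and -5.39 in UT and -1.05 and -1.36 in DSS rose by 3.97 (SE 0.85, adjusted p = 0.0306). Mmp3, a metalloproteinase that cuts many matrix proteins, was at -2.37 and -2.36 in UT and 1.68 and 1.39 in DSS. Each group was tight and the gap between them large (log2 3.90, SE 0.35, adjusted p = 0.00339). Clec4e, a receptor of myeloid cells for microbial and cell debris lipids, stood at -7.04 and -7.60 in UT and -3.09 and -3.90 in DSS. It was not well above background on either UT array, and the rise was at least 5.81-fold (adjusted p = 0.00363); such bounds set the mean of the bright group against the lowest signal above background, array by array.

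Further large rises were of proteases, a coagulation factor and a ribosomal protein. Adamts4, a protease of proteoglycans, stood at -4.29 and -5.72 in UT and -1.20 and -1.73 in DSS (log2 3.54, SE 0.52, adjusted p = 0.0109), and Mmp10, a metalloproteinase related to Mmp3, at -3.25 and -3.37 in UT and 0.35 and -0.98 in DSS (log2 2.99, SE 0.41, adjusted p = 0.00901). In both, DSS 1 was the brightest array and no UT array came near. F10, which encodes coagulation factor X, stood at -2.98 and -4.35 in UT and -0.43 and -1.16 in DSS (log2 2.87, SE 0.41, adjusted p = 0.0103). Rpl39l, a variant ribosomal protein gene, was not well above background in UT and rose at least 1.58-fold, from -8.17 and -8.20 to -5.90 and -4.84 (adjusted p = 0.0173). Chil4, Ereg, Il22, Wfdc21, Nrg1 and Cxcl1 complete the 15 and are described with their groups.

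Among the 15 largest falls were genes of tight junctions, ion channels, iron handling and the urea cycle. Cldn2, which forms cation and water pores in tight junctions, stood at 1.37 and 1.63 in UT and -5.14 and -2.97 in DSS. The UT arrays nearly coincided and both DSS arrays were far lower, though apart from each other (log2 -5.55, SE 0.61, adjusted p = 0.00438). Kcne2, a regulatory subunit of potassium channels, was at -2.96 and -3.33 in UT and not well above background in DSS, a fall of at least 7.59-fold (adjusted p = 0.0039). Hamp, the iron hormone hepcidin, was at -2.35 and -2.50 in UT and fell at least 12.5-fold (adjusted p = 0.0106). Otc, which encodes ornithine transcarbamylase of the urea cycle, stood at -1.54 and -1.35 in UT and -6.69 and -4.93 in DSS (log2 -4.37, SE 0.56, adjusted p = 0.00762). Here the DSS arrays differed by more than the UT arrays, and both were well below them.

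Another 5 of the largest falls belonged to no list. Cpn1, a subunit of carboxypeptidase N, stood at -0.44 and -1.60 in UT and -4.22 and -4.77 in DSS (log2 -3.48, SE 0.47, adjusted p = 0.00901), and Fzd9, a Wnt receptor, at -0.60 and -1.32 in UT and -4.69 and -3.77 in DSS (log2 -3.27, SE 0.48, adjusted p = 0.0109). Mlxipl, which encodes the carbohydrate-responsive factor ChREBP, stood at 0.83 and 0.53 in UT and -2.80 and -2.18 in DSS, tight in each group and far apart (log2 -3.18, SE 0.27, adjusted p = 0.00289). Clec2e, a C-type lectin, and Greb1, first described as an estrogen-induced gene, were both above background in UT alone, with falls of at least 3.17-fold (adjusted p = 0.00289) and at least 5.32-fold (adjusted p = 0.00438). Of these 30 largest changes, Mmp3, Clec4e, Ereg, Nrg1, Cldn2, Kcne2, Otc, Nox1, Lgr5, Clec2e, Greb1, Axin2 and Mlxipl were called under all 12 omissions. The others lost the call at least once, 12 of the 30 without UT 1, 12 without UT 2, 12 without DSS 1 and 8 without DSS 2. The highest limma adjusted p of Chil3 (0.0748), S100a9 (0.0667), S100a8 (0.182) and Dbp (0.122) came without DSS 1, and that of Wfdc21 (0.218) without UT 1. In 8 the call was lost under normexp background correction, which adds 50 to each intensity and so shrinks dim probes: Il22 (0.61), Wfdc21 (0.67), Rpl39l (0.49), Kcne2 (-0.79), Nox1 (-0.63), Clec2e (-0.27), Greb1 (-0.52) and Ugt2b38 (-0.30), each value the log2 change under that correction.

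**Figure D1:**
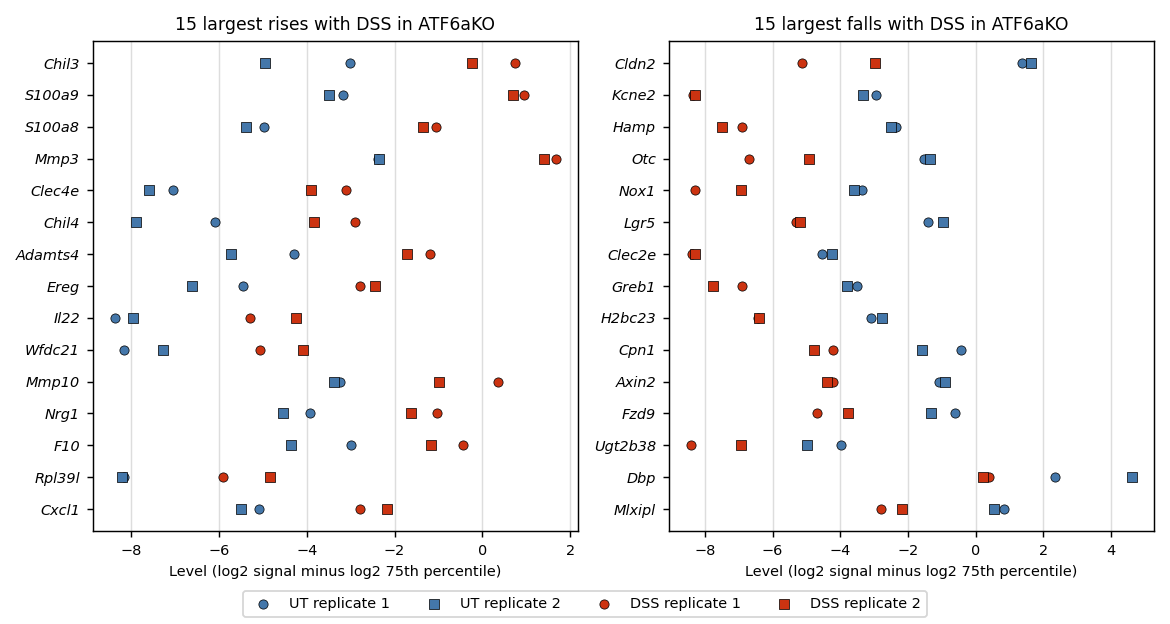
Levels of the 15 genes with the largest rises (left) and the 15 with the largest falls (right) on each of the 4 ATF6aKO arrays; the x axis is the log2 signal minus the log2 75th percentile of the array, circles are replicate 1, squares replicate 2, blue UT and red DSS. That both DSS arrays lie on the same side of both UT arrays was a condition for picking these genes. Dbp is the gene in which the UT arrays lie furthest apart, at 2.34 and 4.63.

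Gene groups were followed as 53 lists (19 for cell types, 34 for pathways) with 1006 genes in all, of which 908 were tested; the others had no matched probe or were not above background on both arrays of any group. Counts of members that rose or fell are to be read against the 2.89% and 3.47% of all genes. Counts of members at an unadjusted p under 0.05 are to be read against the 5574 genes at that level among all genes tested. In tissue RNA, fewer cells of a type and less RNA per cell cannot be told apart.

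**Figure D2:**
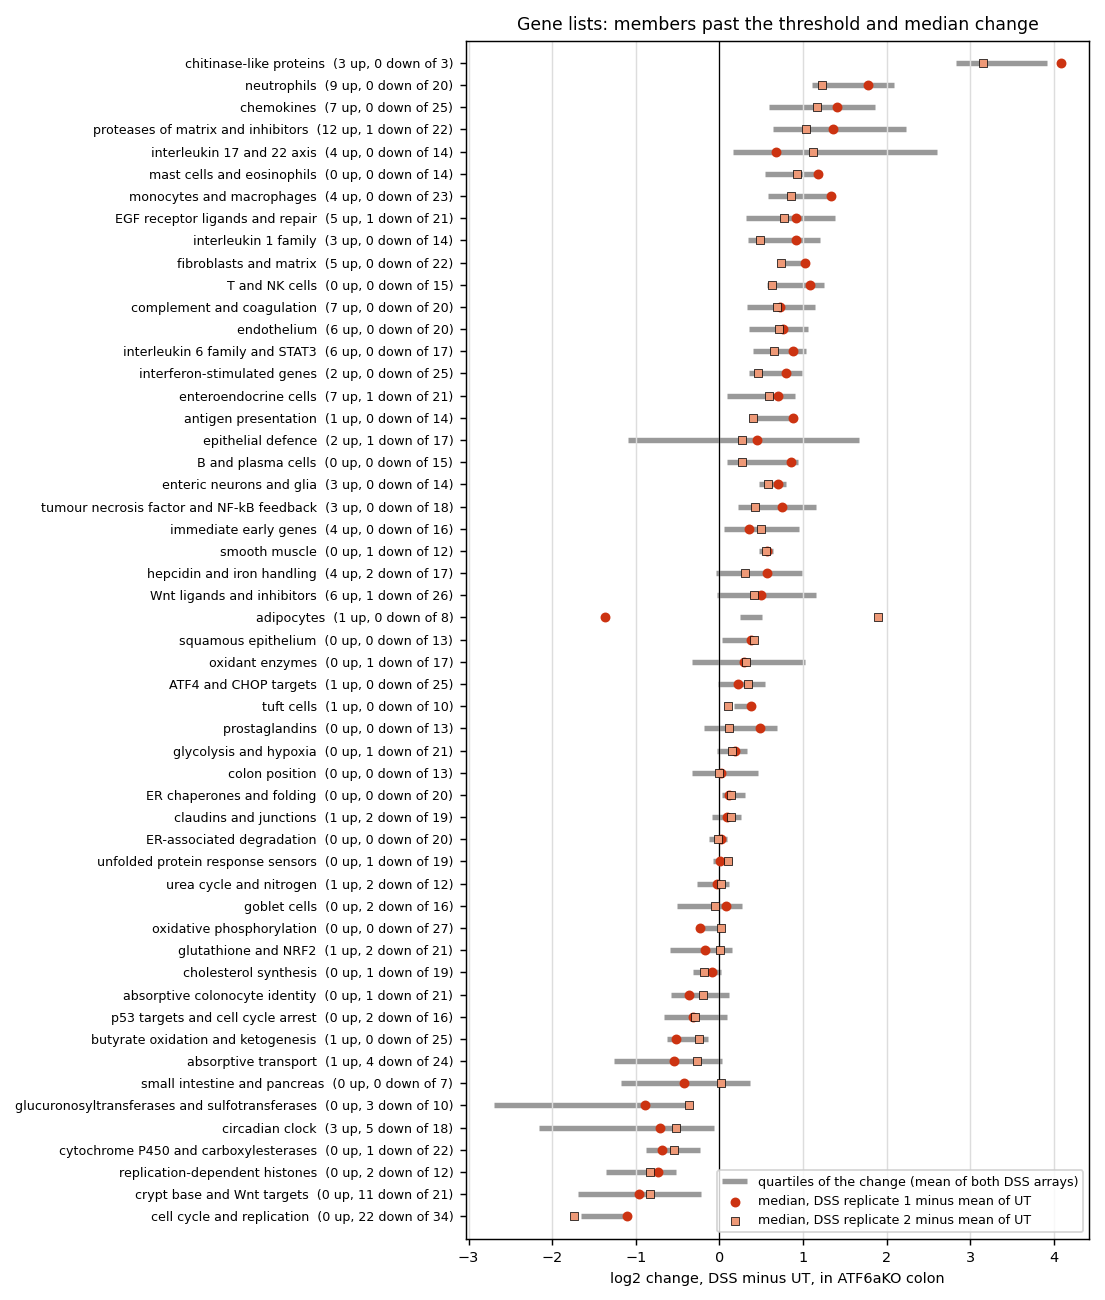
Median log2 change of the tested members of each of the 53 lists, computed for DSS 1 (circles) and DSS 2 (squares) against the mean of the UT arrays, with the quartiles of the members' changes as grey bars and the counts of members past the threshold in the labels. Lists of myeloid cells, chemokines and proteases lie at the top, cell cycle and crypt genes at the bottom with 22 and 11 falls, and the adipocyte list is the one with the DSS arrays furthest apart (-1.37 and 1.89).

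Genes of protein folding in the ER, the classical targets of ATF6, did not pass the test. Of 20 tested chaperones and folding enzymes (22 listed) limma called 0, and 1 had an unadjusted p under 0.05, with a median change of 0.12 and a range from -0.19 to 0.70. Hspa5, the main chaperone BiP, had the largest change. Its levels were 5.26 and 4.89 in UT and 5.77 and 5.78 in DSS, so both DSS arrays lay above both UT arrays, and the change did not pass (log2 0.70, SE 0.27, adjusted p = 0.164). Calr, which encodes the lectin chaperone calreticulin, stood at 5.35 and 4.91 in UT and 5.62 and 5.74 in DSS (log2 0.55, SE 0.26, adjusted p = 0.239), and Pdia4, a protein disulfide isomerase, at 1.57 and 1.28 in UT and 1.89 and 2.03 in DSS (log2 0.54, SE 0.24, adjusted p = 0.211). In both genes UT 2 was the lowest array and the DSS arrays were the brightest. Dnajc3, a cochaperone of BiP, stood at 3.01 and 2.63 in UT and 3.29 and 3.12 in DSS (log2 0.38, SE 0.17, adjusted p = 0.224), and Ero1b, an oxidase that drives disulfide formation, at -0.95 and -0.87 in UT and -0.43 and -0.63 in DSS (log2 0.38, SE 0.17, adjusted p = 0.229). Split by role, the 12 tested chaperones known to respond to ATF6 had a median of 0.23, and the 8 others of 0.06. No member was called under any omission of an array, and 1 was called when the 4 WT arrays were left out. The list's median was 0.14 with quantile normalization, 0.15 with normexp correction and -0.03 with scaling to the median, so no direction is given for it.

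The promoters of Hspa5 and Calr are shown because each carries an ERSE, the element through which ATF6 is known to act, and the gene nonetheless is measured here without ATF6a. The ERSE searched was CCAAT and CCACG with 9 bases between them, on both strands, so each match also contains a CCAAT, the box bound by the factor NF-Y. Sequences are from RefSeq on GRCm38.p6, 250 bases before to 50 after the gene's start, written 5′ to 3′ on the gene's strand, with matches to the ERSE or to a CCAAT in capitals. Hspa5 lies on chr2:34771840-34772139 on the plus strand and Calr on chr8:84846882-84847181 on the minus strand.
Hspa5: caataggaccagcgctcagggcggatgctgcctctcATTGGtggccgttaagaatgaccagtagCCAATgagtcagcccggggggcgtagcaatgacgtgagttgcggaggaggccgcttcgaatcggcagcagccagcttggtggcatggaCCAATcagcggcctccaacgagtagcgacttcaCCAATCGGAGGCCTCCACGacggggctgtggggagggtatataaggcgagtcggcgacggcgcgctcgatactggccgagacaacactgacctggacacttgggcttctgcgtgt
Calr: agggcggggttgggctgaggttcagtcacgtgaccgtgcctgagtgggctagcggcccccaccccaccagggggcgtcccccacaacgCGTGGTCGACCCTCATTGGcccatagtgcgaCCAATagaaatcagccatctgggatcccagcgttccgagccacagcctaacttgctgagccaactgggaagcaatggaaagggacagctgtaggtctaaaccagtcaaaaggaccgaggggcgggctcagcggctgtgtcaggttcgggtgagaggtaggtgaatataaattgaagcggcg
Hspa5 has 4 CCAAT boxes, of which 1 is part of the ERSE, and Calr has 2. Among the promoters of tested ER chaperones 7 of 20 held an ERSE (35%), against 21 of 14619 promoters of all genes tested (0.144%). The 7 chaperone genes with the element had a median change of 0.14 (range -0.01 to 0.70) and the 9 with a promoter in the table but no element 0.09 (range -0.19 to 0.54), and 0 of either were called. An element in the letters of a promoter is a description and does not show that it was used.

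Of the other lists of the unfolded protein response, ER-associated degradation had 0 calls, and the sensors and the ATF4 and CHOP targets had 1 each. Of 20 genes of ER-associated degradation, the removal of misfolded proteins from the ER, limma called 0 and 0 had an unadjusted p under 0.05, with a median change of 0.01, and -0.14 with scaling to the median. Herpud1, a scaffold of the degradation complex and an ATF6 target, stood at 4.17 and 4.61 in UT and 3.91 and 3.97 in DSS (log2 -0.45, SE 0.20, adjusted p = 0.216), with UT 2 the highest of the 4. Among 19 sensors and transcription factors of the response 1 fell and 0 rose. That gene was Ddit3, the death-promoting factor CHOP, at -0.44 and -0.57 in UT and -1.17 and -1.16 in DSS; both groups were tight and the DSS arrays lower (log2 -0.66, SE 0.15, adjusted p = 0.0347). Ern2, the epithelial form of the sensor IRE1, stood at 0.92 and 0.76 in UT and -0.03 and 0.15 in DSS (log2 -0.78, SE 0.37, adjusted p = 0.247), and Creb3l3, a liver and gut relative of ATF6, at -1.13 and -0.66 in UT and -1.33 and -3.18 in DSS, where DSS 2 was far below the rest (log2 -1.36, SE 0.59, adjusted p = 0.199). Xbp1, whose spliced form is the effector of IRE1, stood at 2.59 and 2.55 in UT and 2.85 and 2.84 in DSS (log2 0.27, SE 0.32, adjusted p = 0.654). The 25 targets of ATF4 and CHOP, which supply amino acids under stress, had a median of 0.28 and a range from -0.93 to 1.95, with 3 higher and 2 lower at an unadjusted p under 0.05. Of these 1 rose: Cebpb, a transcription factor of inflammation, at -1.95 and -1.99 in UT and -0.58 and -0.81 in DSS (log2 1.27, SE 0.26, adjusted p = 0.0267). Asns, which makes asparagine, stood at 4.69 and 3.78 in UT and 4.83 and 4.83 in DSS, where UT 2 alone was low (log2 0.60, SE 0.29, adjusted p = 0.256). Neither Ddit3 nor Cebpb was called when any array of the comparison was left out.

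**Figure D3:**
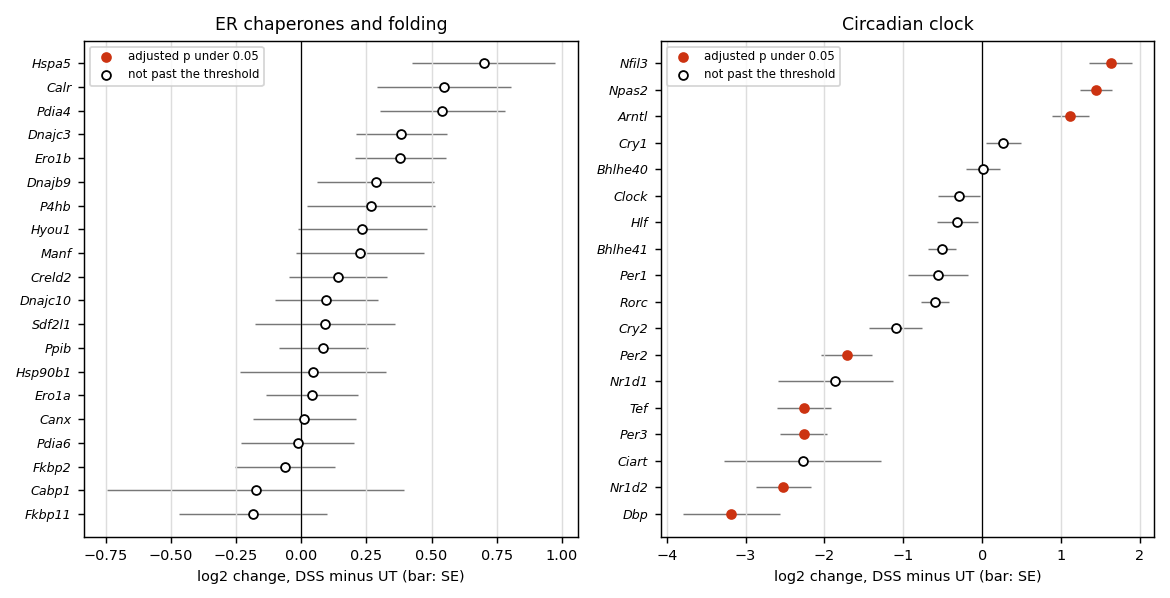
Log2 change, DSS minus UT, with its standard error for the 20 tested ER chaperone and folding genes (left) and the 18 circadian clock genes (right) in ATF6aKO; filled points passed an adjusted p of 0.05. No chaperone passed and the changes end at 0.70 for Hspa5, while 8 clock genes passed, from Dbp at -3.18 to Nfil3 at 1.63.

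Genes of the crypt base were lower. The crypt base holds the stem cells of the colon, which depend on Wnt signals, and of 21 tested crypt and Wnt target genes (26 listed) 11 fell and 0 rose, with a median of -0.90. Lgr5, the stem cell receptor for R-spondins, stood at -1.41 and -0.96 in UT and -5.31 and -5.18 in DSS. Its DSS arrays were nearly equal and lay about 4 log2 units below UT (log2 -4.06, SE 0.24, adjusted p = 0.00139), and the change was called under all 12 omissions. Axin2, a Wnt target that feeds back on the pathway, stood at -1.1 and -0.92 in UT and -4.22 and -4.39 in DSS (log2 -3.30, SE 0.36, adjusted p = 0.00438). Ascl2, a transcription factor of stem cell identity, stood at -3.29 and -3.05 in UT and -4.83 and -4.86 in DSS (log2 -1.68, SE 0.24, adjusted p = 0.0103). In these 3 genes the pairs were tight and the groups did not overlap. Sp5, a direct Wnt target, was above background in UT alone and fell at least 3.4-fold (adjusted p = 0.00438). Cdca7, a chromatin factor of proliferating cells, stood at 0.95 and 0.82 in UT and -1.26 and -1.15 in DSS (log2 -2.09, SE 0.19, adjusted p = 0.00339), and Ephb3, a receptor that positions cells in the crypt, at 1.19 and 0.90 in UT and -0.61 and -0.68 in DSS (log2 -1.69, SE 0.18, adjusted p = 0.00421). Reg4, a lectin of the deep crypt secretory cells that support stem cells, was among the brightest genes at 7.78 and 7.67 in UT and 5.65 and 6.01 in DSS and fell by 1.89 (SE 0.36, adjusted p = 0.0209). Without UT 1, UT 2, DSS 1 or DSS 2 the number of crypt falls was 6, 6, 6 and 8, and Lgr5, Axin2, Sp5, Cdca7 and Ephb3 were called each time.

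The ligands and inhibitors of the Wnt pathway, made largely by the mesenchyme around the crypt, were mostly higher. Of 26 tested members (28 listed) 6 rose and 1 fell, with a median of 0.52. Grem1, a secreted inhibitor of BMP that protects the stem cell niche, stood at 1.85 and 1.92 in UT and 4.01 and 3.39 in DSS (log2 1.81, SE 0.21, adjusted p = 0.00504) and was called under all 12 omissions. Rspo3, the ligand of LGR receptors, stood at -4.11 and -4.04 in UT and -2.49 and -3.06 in DSS (log2 1.30, SE 0.29, adjusted p = 0.0341). The secreted Wnt inhibitors Sfrp1 (log2 1.46, SE 0.26, adjusted p = 0.0176), Sfrp2 (log2 1.26, SE 0.30, adjusted p = 0.0421) and Sfrp4 (log2 1.45, SE 0.34, adjusted p = 0.042) rose too. Wnt5a, a ligand of wound-associated mesenchyme, stood at -5.37 and -5.0 in UT and -3.08 and -3.42 in DSS, with both DSS arrays higher, and did not pass (log2 1.93, SE 0.55, adjusted p = 0.0704). By role, 2 of 9 ligands, 3 of 6 secreted inhibitors, 1 of 7 genes of the BMP side and 0 of 4 receptors rose, and the fall was in the receptor Fzd7, at -1.02 and -0.86 in UT and -1.59 and -1.68 in DSS (log2 -0.69, SE 0.14, adjusted p = 0.0284), named after its values were seen. The calls were thin: 1 member rose without UT 1, UT 2 or DSS 1, and 2 without DSS 2, and no fall was called.

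Many cell cycle genes fell. All 34 tested members (35 listed) were lower in DSS, with no overlap between the groups in any. Among all genes 67.2% had no overlap, in either direction. Of the 34, 22 fell and 0 rose, with a median of -1.46. The fall was deeper on DSS 2 (median -1.74) than on DSS 1 (median -1.10). Ccnb2, cyclin B2 of mitosis, stood at 2.82 and 2.90 in UT and 1.37 and -0.06 in DSS, the largest change of the list but with the DSS arrays well apart (log2 -2.20, SE 0.44, adjusted p = 0.0247). Aurkb, a kinase of chromosome segregation, stood at -0.52 and -0.72 in UT and -2.36 and -2.90 in DSS (log2 -2.01, SE 0.25, adjusted p = 0.0065), and Cdt1, which licenses replication origins, at 2.49 and 2.39 in UT and 0.61 and 0.62 in DSS (log2 -1.83, SE 0.17, adjusted p = 0.00363). These pairs were tighter, and both genes were called under all 12 omissions. Cenpf, a kinetochore protein, stood at 0.01 and 0.04 in UT and -1.39 and -2.27 in DSS (log2 -1.85, SE 0.31, adjusted p = 0.0153), Cenpa, the centromere histone, at -0.11 and -0.11 in UT and -1.32 and -2.55 in DSS (log2 -1.82, SE 0.37, adjusted p = 0.0262), and Kif20a, a motor of cell division, at 0.81 and 0.71 in UT and -0.62 and -1.37 in DSS (log2 -1.76, SE 0.25, adjusted p = 0.0103). In Cenpf, Cenpa and Kif20a DSS 2 was the lowest array. The replicative helicase subunits Mcm2 (log2 -1.07, SE 0.18, adjusted p = 0.0165), Mcm5 (log2 -1.41, SE 0.33, adjusted p = 0.0429) and Mcm6 (log2 -1.37, SE 0.20, adjusted p = 0.0103) fell by less. By role, 9 of 10 spindle and division genes, 6 of 10 of licensing and replication, 5 of 10 cyclins and kinases and 2 of 4 regulators fell. The number of falls was 3 without UT 1, 6 without UT 2, 14 without DSS 1 and 4 without DSS 2.

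The promoters of Ccnb2 and Cenpf are shown for the cell cycle genes homology region (CHR, TTTGAA), a short element of genes switched on in mitosis, which stands in many of these promoters together with CCAAT boxes. Matches to either, on both strands, are in capitals. Ccnb2 lies on chr9:70421505-70421804 and Cenpf on chr1:189688037-189688336, both on the minus strand.
Ccnb2: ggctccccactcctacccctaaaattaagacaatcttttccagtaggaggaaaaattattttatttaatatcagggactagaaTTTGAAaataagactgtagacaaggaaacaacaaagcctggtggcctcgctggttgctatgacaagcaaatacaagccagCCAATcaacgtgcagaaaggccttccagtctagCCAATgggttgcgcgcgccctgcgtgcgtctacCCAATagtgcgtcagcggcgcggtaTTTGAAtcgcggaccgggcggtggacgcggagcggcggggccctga
Cenpf: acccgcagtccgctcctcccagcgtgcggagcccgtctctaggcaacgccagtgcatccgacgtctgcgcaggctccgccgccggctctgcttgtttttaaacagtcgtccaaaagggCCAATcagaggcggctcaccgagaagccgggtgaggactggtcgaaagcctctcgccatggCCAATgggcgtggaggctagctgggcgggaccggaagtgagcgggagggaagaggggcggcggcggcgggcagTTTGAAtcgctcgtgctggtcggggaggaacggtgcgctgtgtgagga
Ccnb2 has 2 CHR and 3 CCAAT matches, and Cenpf 1 and 2. A CHR stood in 14 of 29 promoters of tested cell cycle genes (48.3%), in 117 of 571 promoters of all genes that fell (20.5%), in 56 of 440 of genes that rose (12.7%) and in 13% of all 14619 promoters. The 13 cell cycle genes with a CHR had a median change of -1.59, and 10 of them fell, while the 14 without had a median of -1.24, and 6 fell. A CCAAT stood in 22 of those 29 promoters (75.9%), against 37.3% of all. The E2F site TTTCCCGC was found in 4.03% of promoters of genes that fell and 1.64% of all. These shares describe letters, and the factors were not measured.

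**Figure D4:**
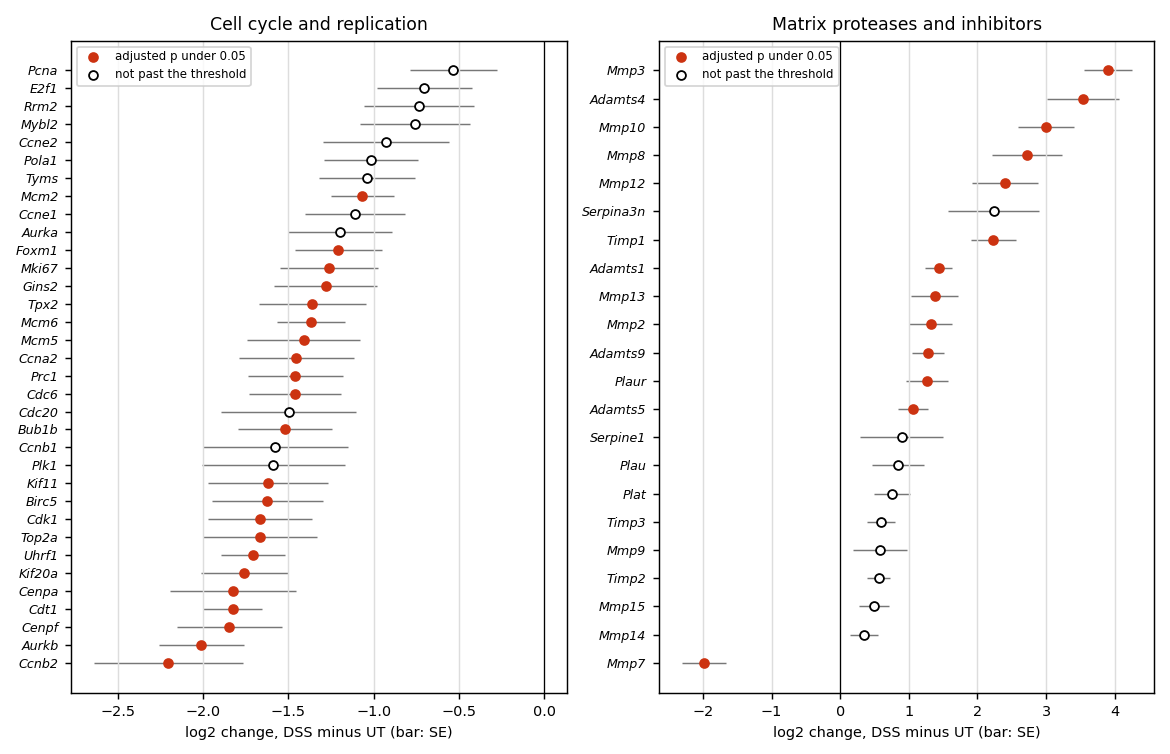
Log2 change, DSS minus UT, with its standard error for the 34 tested cell cycle and replication genes (left) and the 22 genes of matrix proteases and their inhibitors (right) in ATF6aKO; filled points passed an adjusted p of 0.05. Every cell cycle gene lies below 0, down to Ccnb2 at -2.20, and every protease list gene but Mmp7 lies above 0, up to Mmp3 at 3.90.

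Histone genes, most of them of the kind expressed during replication, were lower too. All 12 tested members (18 listed) were lower in DSS without overlap, where 67.2% of all genes had no overlap in either direction. Their median was -0.77, and 2 fell. H2bc23 was well above background in UT alone, at -3.09 and -2.76, and fell at least 8.83-fold (adjusted p = 0.0117). H1f5, a linker histone, stood at 2.56 and 2.43 in UT and 1.03 and 0.73 in DSS (log2 -1.61, SE 0.29, adjusted p = 0.0174). Histone genes are near-identical copies, and whether their probes also bind each other's transcripts was not examined. Genes of cell cycle arrest and of the p53 response were followed as well. Of 16 tested, 0 rose and 2 fell, with a median of -0.31: Pmaip1, the death factor NOXA, at 1.34 and 1.84 in UT and 0.79 and 0.47 in DSS (log2 -0.96, SE 0.20, adjusted p = 0.0295), and Cdkn1b, the cyclin kinase inhibitor p27, at 1.93 and 2.24 in UT and 1.41 and 1.35 in DSS (log2 -0.70, SE 0.16, adjusted p = 0.0365). Cdkn1a, the inhibitor p21 and main p53 target, stood at 2.89 and 3.43 in UT and 2.75 and 2.76 in DSS, a change within the spread (log2 -0.41, SE 0.37, adjusted p = 0.543). No histone or p53 target was called when any array of the comparison was left out.

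Of the tested ion transport genes 20.8% were called, and of the claudins and junction genes 15.8%, against 6.37% of all genes. Of 24 tested transporters and channels (26 listed) 4 fell and 1 rose, with a median of -0.37. Beside Kcne2, the potassium channel Kcnq1, which drives chloride secretion, fell from 3.53 and 3.49 to 1.56 and 2.26 (log2 -1.60, SE 0.28, adjusted p = 0.0178). Cftr, the chloride channel of the crypt, stood at 0.33 and 0.69 in UT and -1.72 and -0.76 in DSS (log2 -1.75, SE 0.40, adjusted p = 0.0387), with DSS 1 the lowest. Scnn1b, a subunit of the epithelial sodium channel of the distal colon, stood at -2.50 and -1.35 in UT and -3.43 and -3.79 in DSS. UT 1 and UT 2 differed by more than 1, and both were above DSS (log2 -1.69, SE 0.38, adjusted p = 0.0368). Its partner Scnn1g stood at -2.48 and -1.09 in UT and -3.95 and -4.32 in DSS, a like pattern that did not pass (log2 -2.35, SE 0.72, adjusted p = 0.0883), and Scnn1a at 3.82 and 4.17 in UT and 3.72 and 3.87 in DSS (log2 -0.20, SE 0.29, adjusted p = 0.724). The rise was in Atp12a, a potassium-absorbing proton pump of the colon, at 2.56 and 2.84 in UT and 3.86 and 4.0 in DSS (log2 1.23, SE 0.24, adjusted p = 0.0222), named after its values were seen. Without UT 1, UT 2, DSS 1 and DSS 2 the falls numbered 2, 1, 1 and 3 and the rises 0.

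Among 19 claudins and junction proteins 2 fell and 1 rose. The 2 falls were in pore-forming claudins, Cldn2 and Cldn15, a sodium pore, at 3.85 and 3.78 in UT and 1.53 and 1.97 in DSS (log2 -2.06, SE 0.23, adjusted p = 0.00473), and both were called under all 12 omissions. Cldn8, a sealing claudin, stood at 2.52 and 2.56 in UT and 4.07 and 4.43 in DSS and rose by 1.71 (SE 0.23, adjusted p = 0.00874), also called without DSS 1 or DSS 2 but not without UT 1 or UT 2. Cldn4, another sealing claudin, stood at -1.27 and -1.25 in UT and -0.26 and -0.53 in DSS, higher in DSS but not past the threshold (log2 0.87, SE 0.29, adjusted p = 0.11), and Ocln, the junction protein occludin, at 0.36 and 0.64 in UT and -0.15 and -0.02 in DSS (log2 -0.58, SE 0.19, adjusted p = 0.104). The 10 scaffold and other junction genes had changes between -0.58 and 0.31, and 0 of them passed.

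Among differentiated cells of the epithelium, 4.76% of colonocyte and 12.5% of goblet cell markers were called, against 6.37% of all genes. Of 21 colonocyte genes 1 fell and 0 rose, with a median of -0.18. Guca2b, the hormone uroguanylin, stood at 1.92 and 2.20 in UT and 0.57 and 1.12 in DSS (log2 -1.22, SE 0.23, adjusted p = 0.0214), and Vil1 changed by 0.20 (SE 0.15, adjusted p = 0.475). Cdx2, the transcription factor of intestinal identity, stood at 2.47 and 2.03 in UT and 0.65 and 0.95 in DSS, lower in both DSS arrays but not past the threshold (log2 -1.45, SE 0.43, adjusted p = 0.0804). Of 16 goblet cell genes 2 fell and 0 rose, with a median of -0.07. Creb3l4, a relative of ATF6 in the ER membrane, stood at 3.11 and 3.17 in UT and 1.89 and 2.03 in DSS (log2 -1.18, SE 0.19, adjusted p = 0.0149), and Spdef, a factor of goblet maturation, at 3.17 and 2.86 in UT and 1.97 and 2.26 in DSS (log2 -0.90, SE 0.22, adjusted p = 0.0493). Atoh1, which commits cells to the secretory lineage, stood at -0.76 and -0.62 in UT and -2.48 and -1.80 in DSS (log2 -1.45, SE 0.37, adjusted p = 0.0534). The mucus proteins themselves were among the brightest genes on every array, Fcgbp at 8.93 and 9.04 in UT and 9.24 and 9.27 in DSS (log2 0.27, SE 0.20, adjusted p = 0.454) and Clca1 at 8.62 and 8.76 in UT and 8.92 and 9.02 in DSS (log2 0.28, SE 0.26, adjusted p = 0.555). All 3 goblet transcription factors had values below 0, against a median of 0.28 for the 7 mucus genes, of which 0 passed. Guca2b was not called without UT 1, UT 2 or DSS 1, and no goblet gene was called when any array of the comparison was left out.

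Enteroendocrine cells, which secrete gut hormones, had higher hormone levels with DSS. Of 21 tested genes 7 rose and 1 fell, with a median of 0.67. Gcg, which encodes proglucagon and GLP-1, stood at 2.48 and 2.44 in UT and 3.90 and 3.61 in DSS (log2 1.30, SE 0.17, adjusted p = 0.00751), Pyy, peptide YY, at 5.71 and 5.79 in UT and 7.18 and 7.06 in DSS (log2 1.37, SE 0.19, adjusted p = 0.00901), and Tac1, the precursor of substance P, at -0.53 and -0.67 in UT and 1.12 and 0.78 in DSS (log2 1.55, SE 0.30, adjusted p = 0.0225). Each pair was close and the groups were separate. Insl5, a hormone of the distal colon, stood at 5.39 and 5.66 in UT and 6.84 and 6.63 in DSS and did not pass (log2 1.21, SE 0.47, adjusted p = 0.166). The fall was in Neurog3, the factor of enteroendocrine precursors, at -4.19 and -4.74 in UT and -5.80 and -5.42 in DSS (log2 -1.14, SE 0.28, adjusted p = 0.0467). By role, 4 of 8 hormones and 3 of 7 granule proteins rose, and 0 of 6 transcription factors did. The rises numbered 1, 1, 0 and 2 without UT 1, UT 2, DSS 1 and DSS 2. Of 10 genes of tuft cells, the chemosensory cells of the epithelium, 1 rose, Alox5ap, a partner of leukotriene synthesis also found in leukocytes, at 1.37 and 1.04 in UT and 2.18 and 1.90 in DSS (log2 0.84, SE 0.20, adjusted p = 0.0421), and it was not called when any array of the comparison was left out.

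Iron and oxidant genes held 2 of the largest falls. Of 17 genes of iron handling 4 rose and 2 fell. The falls were Hamp, described above, and Tfrc, the transferrin receptor, at 2.41 and 2.04 in UT and 0.41 and 0.86 in DSS (log2 -1.59, SE 0.25, adjusted p = 0.0135). The rises were in genes of iron storage and binding. Lcn2, which withholds iron carriers from bacteria, stood at -3.79 and -4.29 in UT and -2.20 and -2.54 in DSS (log2 1.67, SE 0.35, adjusted p = 0.0285), Cp, the ferroxidase ceruloplasmin, at -0.99 and -1.04 in UT and 0.51 and 0.14 in DSS (log2 1.34, SE 0.23, adjusted p = 0.016), and Ltf, lactoferrin of neutrophil granules, at -5.84 and -5.25 in UT and -3.51 and -3.74 in DSS (log2 1.92, SE 0.45, adjusted p = 0.042). The fourth was Hmox1, described with the glutathione genes. Hp, which binds free hemoglobin, stood at -0.89 and -1.26 in UT and 0.65 and 1.74 in DSS, the DSS arrays apart and the test not passed (log2 2.27, SE 0.65, adjusted p = 0.0737). Of the 6 calls, 0 were made without UT 1, UT 2 or DSS 1 and 3 without DSS 2. Among 17 oxidant enzymes 1 fell: Nox1, the superoxide-producing oxidase of colon epithelium, well above background in UT alone at -3.35 and -3.61 and at least 6.03-fold lower in DSS (adjusted p = 0.00363). The macrophage genes Acod1, which makes itaconate, at -6.81 and -4.26 in UT and -2.90 and -3.48 in DSS (log2 2.34, SE 0.79, adjusted p = 0.115), and Arg1, arginase, at -2.95 and -5.28 in UT and -1.48 and -2.30 in DSS (log2 2.22, SE 0.80, adjusted p = 0.136), did not pass, and their UT arrays lay more than 2 units apart.

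Many neutrophil genes rose. All 20 tested members (24 listed) were higher in DSS, 9 rose and the median was 1.48, and the summed level of the list went from 0.71 and 0.81 in UT to 2.82 in DSS 1 and 2.34 in DSS 2. Beside calprotectin and Clec4e, Clec4d, a related lectin receptor, stood at -3.59 and -4.30 in UT and -1.44 and -2.26 in DSS (log2 2.09, SE 0.45, adjusted p = 0.0311). Fpr2, a receptor for bacterial formyl peptides, was well above background in DSS alone, at -3.58 and -4.38, and rose at least 4.05-fold (adjusted p = 0.023). Mmp8, the collagenase of neutrophil granules, was likewise on in DSS alone and rose at least 1.76-fold (adjusted p = 0.021). By role, 5 of 8 calprotectin and granule genes and 4 of 9 receptors rose. A single member was called without UT 1, UT 2 or DSS 1, and 5 without DSS 2. Clec4e was the member called under all 12 omissions.

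Chemokines, the proteins that direct leukocytes, rose in several classes. Of 25 tested (26 listed) 7 rose and 0 fell, with a median of 1.30. Cxcl1, which attracts neutrophils, stood at -5.08 and -5.49 in UT and -2.79 and -2.16 in DSS and rose by 2.81 (SE 0.43, adjusted p = 0.0119). Cxcl5, from epithelium, stood at -3.80 and -4.08 in UT and -0.90 and -1.29 in DSS, as large a step that did not pass (log2 2.84, SE 0.97, adjusted p = 0.119). Its wide error is drawn from the spread of all 12 arrays. Cxcl2 was well above background in DSS alone, at -5.53 and -5.50 (adjusted p = 0.11), and Cxcl3 was not well above background on any of the 4 arrays. Of 6 monocyte attractants 4 rose, among them Ccl2, at -1.0 and -1.63 in UT and 0.61 and 0.63 in DSS (log2 1.93, SE 0.48, adjusted p = 0.0489), and Ccl8, at 4.50 and 3.57 in UT and 6.34 and 5.69 in DSS (log2 1.98, SE 0.42, adjusted p = 0.0294). Of 5 neutrophil attractants, Cxcl3 included, 1 rose, as did 1 of 2 CXCR3 ligands and 1 of 12 homeostatic chemokines, and no difference between these classes was tested. Ccl24, an eosinophil attractant, stood at 0.48 and -1.54 in UT and 2.16 and 1.66 in DSS, where the UT arrays lay 2 units apart (log2 2.44, SE 0.69, adjusted p = 0.0697). The rises numbered 0, 1, 1 and 1 without UT 1, UT 2, DSS 1 and DSS 2.

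The promoters of Cxcl1, Cxcl2 and Cxcl3, neighbouring genes on chromosome 5, are shown because all 3 hold the same variant of the NF-kB site, in capitals. They lie on the plus strand at chr5:90890995-90891294, chr5:90903649-90903948 and chr5:90785851-90786150.
Cxcl1: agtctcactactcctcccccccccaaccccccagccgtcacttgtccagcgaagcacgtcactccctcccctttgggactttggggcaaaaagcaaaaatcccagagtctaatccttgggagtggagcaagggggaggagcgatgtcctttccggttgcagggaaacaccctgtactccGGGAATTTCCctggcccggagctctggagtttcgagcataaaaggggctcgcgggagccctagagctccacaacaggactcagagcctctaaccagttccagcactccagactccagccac
Cxcl2: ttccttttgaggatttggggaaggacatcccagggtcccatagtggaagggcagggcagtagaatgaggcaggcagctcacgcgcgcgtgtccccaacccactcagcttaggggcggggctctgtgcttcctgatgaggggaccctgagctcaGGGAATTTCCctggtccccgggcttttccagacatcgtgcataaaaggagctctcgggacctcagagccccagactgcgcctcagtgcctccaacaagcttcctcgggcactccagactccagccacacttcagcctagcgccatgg
Cxcl3: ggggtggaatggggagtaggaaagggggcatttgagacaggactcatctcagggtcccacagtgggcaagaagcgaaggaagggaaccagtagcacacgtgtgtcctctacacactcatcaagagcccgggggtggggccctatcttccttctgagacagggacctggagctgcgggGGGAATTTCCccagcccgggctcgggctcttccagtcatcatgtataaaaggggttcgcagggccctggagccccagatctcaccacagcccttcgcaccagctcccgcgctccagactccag
The variant was found in 3 of 4 neutrophil attractant promoters in the table and in 19 of all 14619 (0.130%), including 1 of 440 promoters of genes that rose (0.227%). The AP-1 site TGACTCA, bound by FOS and JUN proteins, stood in 33 of the 440 (7.50%) and in 4.12% of all promoters, and the STAT site TTCCNGGAA in 2.27% and 1.27%.

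Monocyte and macrophage genes were higher with DSS in 21 of 23 tested, with a median of 1.08, and 4 rose: Chil3, Ly6c2 and, named after their values were seen, the complement subunits C1qb (log2 1.20, SE 0.29, adjusted p = 0.0439) and C1qc (log2 1.09, SE 0.24, adjusted p = 0.0339). Ly6c2, listed as a gene of recruited monocytes, stood at 6.34 and 6.30 in UT and 7.98 and 7.65 in DSS (log2 1.49, SE 0.34, adjusted p = 0.0397). Csf1r, the receptor for their growth factor, stood at 1.34 and 1.23 in UT and 2.78 and 2.10 in DSS (log2 1.15, SE 0.32, adjusted p = 0.0674), and Ccr2, the receptor for CCL2, at -2.09 and -2.44 in UT and -0.61 and -1.14 in DSS (log2 1.39, SE 0.37, adjusted p = 0.0619). Neither passed, though in both genes the DSS arrays were the higher. Ly6c2 was far brighter in UT than Ccr2, and whether its probe also binds transcripts of related genes was not examined. At an unadjusted p under 0.05, 15 members were higher and 1 lower, while the calls numbered 1, 1, 0 and 1 without UT 1, UT 2, DSS 1 and DSS 2. All 3 tested chitinase-like genes rose: Chil3, Chil4, at least 6.33-fold from -6.10 and -7.89 to -2.90 and -3.84 (adjusted p = 0.0141), and Chil1 at -4.13 and -3.95 in UT and -1.79 and -2.18 in DSS (log2 2.05, SE 0.33, adjusted p = 0.0136). Chil3 and Chil4 are close copies, and whether their probes tell them apart was not examined. None of the 3 was called without DSS 1.

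No lymphocyte or mast cell marker passed. Of 15 genes of T and NK cells limma called 0, with 9 higher and 0 lower at an unadjusted p under 0.05 and a median of 0.80. Gzma, a protease of cytotoxic granules, stood at -3.84 and -4.88 in UT and -1.98 and -2.58 in DSS (log2 2.08, SE 0.56, adjusted p = 0.0632), and Ifng, interferon gamma, was well above background on 1 of the 4 arrays, DSS 1 (adjusted p = 0.08). Cd3g, a subunit of the T cell receptor complex, stood at -4.62 and -4.35 in UT and -3.29 and -3.66 in DSS (log2 1.01, SE 0.27, adjusted p = 0.061). Of 15 B and plasma cell genes limma called 0, and 1 was higher at an unadjusted p under 0.05; the list's median difference between DSS 1 and DSS 2 (0.86) exceeded its median change (0.61). Of 14 mast cell and eosinophil genes, all of them higher in DSS, limma called 0, with 8 at an unadjusted p under 0.05 and a median of 1.12. Mcpt1, a mucosal mast cell protease, stood at 3.26 and 2.72 in UT and 4.17 and 4.25 in DSS (log2 1.22, SE 0.57, adjusted p = 0.236).

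Cytokines rose in each of the inflammatory families, by few members. In the interleukin 1 family 3 of 14 rose. Il1b, the main secreted form, stood at -2.13 and -2.82 in UT and -0.79 and 0.16 in DSS (log2 2.16, SE 0.40, adjusted p = 0.0201), its decoy receptor Il1r2 at -3.62 and -3.32 in UT and -1.55 and -2.21 in DSS (log2 1.59, SE 0.27, adjusted p = 0.0164) and Il18bp, which neutralises interleukin 18, at -1.71 and -2.06 in UT and 0.24 and -0.82 in DSS (log2 1.59, SE 0.35, adjusted p = 0.0337). In the interleukin 6 family 6 of 17 rose. Il11, a cytokine of stromal cells, stood at -3.41 and -4.0 in UT and -1.01 and -0.80 in DSS and was called under all 12 omissions (log2 2.80, SE 0.26, adjusted p = 0.00363). Il6 stood at -5.62 and -5.76 in UT and -3.16 and -3.19 in DSS (log2 2.52, SE 0.47, adjusted p = 0.0203), and Socs3, the feedback inhibitor that STAT3 induces, at 1.47 and 0.89 in UT and 3.75 and 3.79 in DSS (log2 2.59, SE 0.49, adjusted p = 0.0208). The receptors Osmr (log2 1.45, SE 0.33, adjusted p = 0.0403) and Il6st (log2 1.03, SE 0.19, adjusted p = 0.0182) rose too. Each of these genes was higher in both DSS arrays than in either UT array. The interleukin 1 calls numbered 0, 0, 1 and 2, and those of interleukin 6 numbered 1, 1, 1 and 2, without UT 1, UT 2, DSS 1 and DSS 2.

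Interleukin 22, a cytokine of lymphoid cells that acts on epithelium, and its targets formed another group. Of 14 tested members (20 listed) 4 rose, with a median of 1.17: Il22, Lcn2, S100a8 and, named after its values were seen, Fut2, a fucosyltransferase of the epithelium (log2 1.06, SE 0.26, adjusted p = 0.0492). Lcn2 and S100a8 are also members of the neutrophil list and were counted there. Il22 was not well above background in UT and stood at -5.30 and -4.25 in DSS, a rise of at least 2.39-fold (adjusted p = 0.0145). Its antimicrobial targets Reg3g, at -6.96 and -3.34 in UT and -1.89 and -1.60 in DSS (log2 3.40, SE 1.36, adjusted p = 0.172), and Reg3b, not well above background in UT and at -4.95 and -4.72 in DSS (adjusted p = 0.175), did not pass. In Reg3g UT 2 was far above UT 1. Among 18 genes of tumour necrosis factor and NF-kB feedback 3 rose. Tnf itself stood at -4.71 and -4.32 in UT and -2.35 and -1.72 in DSS (log2 2.48, SE 0.27, adjusted p = 0.00438) and the receptor Tnfrsf1b at -1.06 and -1.0 in UT and 0.35 and 0.20 in DSS (log2 1.31, SE 0.15, adjusted p = 0.00476), and both were called under all 12 omissions. Tnfaip2, which is induced by the cytokine, stood at -0.25 and -0.47 in UT and 1.34 and 0.62 in DSS (log2 1.34, SE 0.26, adjusted p = 0.0234). The interleukin 22 group had 0, 0, 1 and 0 calls and the tumour necrosis factor group 2, 2, 2 and 3 without UT 1, UT 2, DSS 1 and DSS 2.

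Interferon-stimulated genes were higher in 23 of 25 tested, with a median of 0.67, and 2 rose. Ifit3, an antiviral protein, stood at -1.02 and -0.87 in UT and 0.27 and 0.05 in DSS (log2 1.1, SE 0.22, adjusted p = 0.0253), and Zbp1, a sensor of nucleic acids, at 1.12 and 0.95 in UT and 2.43 and 2.03 in DSS (log2 1.20, SE 0.26, adjusted p = 0.0329). Both belong to the type I class, in which 2 of 13 rose, and 0 of 12 genes of the interferon gamma class did. The medians of these classes were 0.62 and 0.74, and no difference between them was tested. Ido1, a tryptophan-degrading enzyme, stood at -2.80 and -3.74 in UT and 0.30 and -3.40 in DSS: DSS 1 was high and DSS 2 at the level of UT, the largest difference between the DSS arrays in this direction (log2 1.72, SE 0.98, adjusted p = 0.33). Iigp1, an interferon-induced GTPase, stood at 0.08 and -0.72 in UT and 1.63 and 0.83 in DSS (log2 1.55, SE 0.70, adjusted p = 0.222). Of 14 genes of antigen presentation 1 rose, Psmb8 of the immunoproteasome, at 2.23 and 2.44 in UT and 3.50 and 3.22 in DSS (log2 1.02, SE 0.21, adjusted p = 0.0284). The class II gene H2-Aa stood at 2.29 and 2.49 in UT and 3.66 and 2.95 in DSS, with DSS 1 the highest (log2 0.92, SE 0.37, adjusted p = 0.177). Neither interferon gene was called without UT 1, UT 2 or DSS 1, and Psmb8 was not called when any array of the comparison was left out.

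Complement and coagulation genes were higher in all 20 tested, and 7 rose, with a median of 0.78. C3, the central complement protein, stood at 5.06 and 4.78 in UT and 6.11 and 5.86 in DSS (log2 1.06, SE 0.26, adjusted p = 0.0469), C4b at 1.03 and 0.80 in UT and 2.22 and 1.94 in DSS (log2 1.16, SE 0.24, adjusted p = 0.0293) and C2 at -0.51 and -0.35 in UT and 0.64 and 0.79 in DSS (log2 1.14, SE 0.27, adjusted p = 0.0447). C3ar1, the receptor for a fragment of C3 on myeloid cells, stood at -2.76 and -2.91 in UT and -0.94 and -1.62 in DSS (log2 1.55, SE 0.36, adjusted p = 0.0423). On the coagulation side F7, which starts the cascade with tissue factor, stood at -4.36 and -5.49 in UT and -2.72 and -3.51 in DSS (log2 1.81, SE 0.38, adjusted p = 0.0287), beside F10. Pairs were close in the complement genes and less so in F7, whose UT arrays differed by more than 1. The rises numbered 2, 1, 0 and 1 without UT 1, UT 2, DSS 1 and DSS 2. Among 17 genes of epithelial defence 2 rose and 1 fell. Lcn2 and Reg4 are described above, and the other rise was Wfdc21, a small secreted protein, not well above background in UT and at -5.07 and -4.08 in DSS, a rise of at least 2.75-fold (adjusted p = 0.0489). None of the 3 was called when any array of the comparison was left out.

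Among stromal lists, matrix proteases had the highest share of rises. Of 22 matrix proteases and inhibitors 12 rose and 1 fell, with a median of 1.27. In none did the groups overlap, and the same held for 67.2% of all genes. Mmp12, the elastase of macrophages, was well above background on DSS 1 and on neither UT array, and rose at least 1.36-fold (adjusted p = 0.0243). Mmp13, a collagenase, stood at -3.0 and -3.17 in UT and -1.28 and -2.13 in DSS (log2 1.38, SE 0.34, adjusted p = 0.0489). Serpina3n, an inhibitor of serine proteases, stood at 0.05 and -1.25 in UT and 2.12 and 1.15 in DSS and did not pass (log2 2.24, SE 0.66, adjusted p = 0.079). By role, 6 of 10 metalloproteinases, 4 of 4 Adamts proteases, 1 of 5 inhibitors and 1 of 3 genes of plasminogen activation rose. The inhibitor was Timp1, at 0.32 and -0.56 in UT and 2.41 and 1.81 in DSS (log2 2.23, SE 0.33, adjusted p = 0.0108), and the fall was Mmp7, a protease of epithelium, well above background on 1 UT array and no DSS array, which fell (adjusted p = 0.0146) but had a change of 0.03 with normexp correction; these 2 are named after their values were seen. The calls numbered 3, 2, 2 and 7 without UT 1, UT 2, DSS 1 and DSS 2, and Mmp3 was called in each case.

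All 22 fibroblast and matrix genes tested (25 listed) were higher without overlap, where 67.2% of all genes had no overlap in either direction. Their median was 0.85, and 5 rose. Thbs1, thrombospondin 1, stood at -2.38 and -2.15 in UT and -0.26 and -0.71 in DSS (log2 1.78, SE 0.32, adjusted p = 0.019), and Pdpn, podoplanin of activated fibroblasts and lymphatics, at -4.23 and -4.66 in UT and -2.73 and -3.21 in DSS (log2 1.48, SE 0.29, adjusted p = 0.024). Pdgfra, the receptor that marks crypt-side fibroblasts, stood at 1.48 and 1.12 in UT and 2.69 and 2.13 in DSS (log2 1.11, SE 0.22, adjusted p = 0.0248), and Col4a1, a basement membrane collagen, at 2.27 and 2.05 in UT and 3.54 and 3.14 in DSS (log2 1.18, SE 0.22, adjusted p = 0.0204). The fifth was the fibril collagen Col5a1 (log2 0.85, SE 0.20, adjusted p = 0.041), named after its values were seen. The main fibrillar collagen Col1a1 stood at 3.77 and 3.70 in UT and 4.77 and 4.37 in DSS and did not pass (log2 0.83, SE 0.27, adjusted p = 0.1). DSS 1 was the highest array in each of these. The fibroblast rises numbered 0, 0, 0 and 2 without UT 1, UT 2, DSS 1 and DSS 2. Of 20 endothelial genes 6 rose, with a median of 0.77. Selp, P-selectin, which slows leukocytes on venules, stood at -3.43 and -3.78 in UT and -0.70 and -1.87 in DSS (log2 2.32, SE 0.35, adjusted p = 0.0116), Ackr1, a chemokine receptor of venules, at -1.12 and -1.07 in UT and 0.98 and 0.54 in DSS (log2 1.86, SE 0.30, adjusted p = 0.0144), and Vcam1, an adhesion molecule, at 0.61 and 0.92 in UT and 2.36 and 1.81 in DSS (log2 1.32, SE 0.28, adjusted p = 0.0312). The endothelial receptor Kdr stood at 0.27 and 0.50 in UT and 0.73 and 0.60 in DSS (log2 0.28, SE 0.17, adjusted p = 0.358). By role, 3 of 7 activation genes, 2 of 9 blood endothelial genes and 1 of 4 lymphatic genes rose, and the calls numbered 0, 0, 1 and 2 in the same order of omission.

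Muscle and nerve genes were higher by a smaller and even amount. The 11 tested contractile genes of smooth muscle had changes between 0.42 and 0.82, and 0 were called. Des, desmin, stood at 4.08 and 4.05 in UT and 4.93 and 4.84 in DSS (log2 0.82, SE 0.29, adjusted p = 0.134) and Cnn1, calponin, at 7.63 and 7.81 in UT and 8.38 and 8.26 in DSS (log2 0.60, SE 0.21, adjusted p = 0.121). Pairs were tight in both and the step was under 1. The gene of the pacemaker cells, Ano1, a chloride channel, fell from 2.66 and 3.0 to 1.45 and 1.52 (log2 -1.34, SE 0.23, adjusted p = 0.017). Of 14 genes of enteric neurons and glia, all of them higher, 3 rose, among them Stmn2, a neuronal tubulin regulator, at -1.99 and -1.85 in UT and -1.01 and -1.16 in DSS (log2 0.83, SE 0.16, adjusted p = 0.0218), and Tubb3, neuronal tubulin, at -0.63 and -0.58 in UT and 0.22 and 0.04 in DSS (log2 0.74, SE 0.18, adjusted p = 0.0452). No muscle or nerve gene was called when any array of the comparison was left out. Of the adipocyte genes 1 of 8 rose, Lpl, lipoprotein lipase, which macrophages also make, at -0.34 and 0.09 in UT and 0.76 and 1.75 in DSS (log2 1.38, SE 0.31, adjusted p = 0.0369). In DSS 2, the array richest in fat, it was the highest, and the part of fat in its rise was not tested; it was called without DSS 1 and not without UT 1, UT 2 or DSS 2. Squamous, small intestinal and pancreatic markers, which would point to tissue from outside the colon, had 0 calls by limma among 13 and 7 tested, with 0 and 2 at an unadjusted p under 0.05. The summed squamous level was 2.41 and 2.12 in UT and 2.98 and 2.90 in DSS.

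Ligands of the EGF receptor family, which drive repair of the epithelium, were among the genes that rose. Of 21 tested genes of this group (22 listed) 5 rose and 1 fell, with a median of 0.88, and 4 of the 8 ligands rose against 0 of 3 receptors. Ereg, epiregulin, stood at -5.45 and -6.60 in UT and -2.78 and -2.44 in DSS; UT 2 was the lowest array and both DSS arrays were about 3 units higher (log2 3.41, SE 0.45, adjusted p = 0.00833). Areg, amphiregulin, stood at -0.79 and -0.84 in UT and 1.35 and 1.80 in DSS (log2 2.39, SE 0.23, adjusted p = 0.00363) and Nrg1, neuregulin 1, at -3.93 and -4.54 in UT and -1.03 and -1.63 in DSS (log2 2.90, SE 0.35, adjusted p = 0.00585). All 3 were called under all 12 omissions. Hbegf, another ligand, stood at 1.24 and 1.03 in UT and 2.63 and 3.02 in DSS (log2 1.69, SE 0.23, adjusted p = 0.00931). Ly6a, a marker of regenerating epithelium also known as Sca-1, was bright at 4.51 and 4.35 in UT and 6.84 and 6.60 in DSS and rose by 2.29 (SE 0.32, adjusted p = 0.0091). Clu, of another regenerative cell state, stood at 1.42 and 3.01 in UT and 3.79 and 3.41 in DSS; UT 2 was nearly as high as DSS (log2 1.38, SE 0.65, adjusted p = 0.241). The fall was in Lrig1, a brake on these receptors that marks stem cells, at 3.69 and 3.88 in UT and 2.82 and 2.96 in DSS (log2 -0.90, SE 0.16, adjusted p = 0.0175), named after its values were seen. The calls of the group numbered 4, 3, 4 and 5 without UT 1, UT 2, DSS 1 and DSS 2.

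Immediate early genes, which answer growth factors within minutes, rose in part. Of 16 tested 4 rose, with a median of 0.57: Fosl1, a partner of JUN, at -4.10 and -4.94 in UT and -2.32 and -1.51 in DSS (log2 2.61, SE 0.46, adjusted p = 0.0175), Egr1 at 1.33 and 1.03 in UT and 2.61 and 3.63 in DSS (log2 1.95, SE 0.34, adjusted p = 0.0164), Egr2 at -2.21 and -2.80 in UT and -0.83 and -0.35 in DSS (log2 1.91, SE 0.31, adjusted p = 0.0149) and Junb at 4.51 and 5.19 in UT and 5.69 and 5.82 in DSS (log2 0.91, SE 0.22, adjusted p = 0.0481). In all 4 DSS 2 was the brightest array, unlike most rises. Fosb stood at -1.82 and -2.28 in UT and -1.41 and -0.84 in DSS and did not pass (log2 0.93, SE 0.35, adjusted p = 0.149). The calls numbered 1, 1, 1 and 0 without UT 1, UT 2, DSS 1 and DSS 2. Of 13 prostaglandin genes limma called 0, with 4 higher and 1 lower at an unadjusted p under 0.05. Ptgs2, the inducible cyclooxygenase, stood at -2.08 and -2.42 in UT and -1.52 and -1.22 in DSS (log2 0.88, SE 0.36, adjusted p = 0.177).

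The share of genes called in these metabolic lists ran from 0% in oxidative phosphorylation to 25% in the urea cycle list, against 6.37% of all genes. Of 27 genes of oxidative phosphorylation limma called 0, and 1 was lower at an unadjusted p under 0.05, with a median of -0.10. Of 25 genes of butyrate use, the main fuel of colonocytes, and ketogenesis 20 had values below 0 with a median of -0.35, and 0 fell and 1 rose. Angptl4, an inhibitor of lipoprotein lipase that fatty acids and hypoxia induce, was the rise, at -0.85 and 0.30 in UT and 1.44 and 1.36 in DSS (log2 1.67, SE 0.41, adjusted p = 0.0467). Slc16a1, which takes up butyrate, stood at 4.26 and 4.67 in UT and 3.74 and 4.11 in DSS (log2 -0.54, SE 0.21, adjusted p = 0.171). Of 21 genes of glycolysis and hypoxia 1 fell: Vegfa, the endothelial growth factor, at 1.69 and 1.53 in UT and 0.43 and 0.71 in DSS (log2 -1.04, SE 0.26, adjusted p = 0.0492). In the urea cycle Nags, whose product activates the cycle, fell from -3.82 and -3.28 to -6.03 and -5.34 (log2 -2.13, SE 0.46, adjusted p = 0.031), beside Otc, and Slc38a4, an amino acid transporter, rose at least 2.04-fold (adjusted p = 0.0149). Otc was called under all 12 omissions. Slc38a4 was called without DSS 2 and in no other of these cases, and its 2 probes did not change in the same direction. Angptl4, Vegfa and Nags were not called when any array of the comparison was left out.

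A few detoxifying enzymes fell. Of 10 glucuronosyl- and sulfotransferases 3 fell, all of the Ugt2b family. Ugt2b35 stood at -0.23 and -0.23 in UT and -3.35 and -1.94 in DSS (log2 -2.41, SE 0.37, adjusted p = 0.012). Ugt2b38 was well above background in UT alone and fell at least 3.02-fold (adjusted p = 0.0119). Ugt2b36 was well above background on UT 1 alone and fell at least 1.5-fold (adjusted p = 0.0351). The Ugt2b genes are close copies, and cross-hybridisation between their probes was not examined. Of 22 cytochromes P450 and carboxylesterases 17 had values below 0, with a median of -0.62, and 1 fell: Cyp2d26 at 1.81 and 2.45 in UT and -0.03 and 0.66 in DSS (log2 -1.81, SE 0.39, adjusted p = 0.0311). The esterases Ces2b, at 4.27 and 5.21 in UT and 3.27 and 3.84 in DSS (log2 -1.18, SE 0.31, adjusted p = 0.0576), and Ces2c, at 3.83 and 4.75 in UT and 2.72 and 3.38 in DSS (log2 -1.24, SE 0.31, adjusted p = 0.0534), just missed the threshold. In each of these UT 2 was the highest array. Of 21 glutathione and NRF2 genes 2 fell and 1 rose. Gsta3, a glutathione transferase, stood at 2.41 and 3.08 in UT and -0.49 and 1.1 in DSS (log2 -2.44, SE 0.45, adjusted p = 0.0197), Nqo1, a quinone reductase, at -0.20 and 0.31 in UT and -1.04 and -0.99 in DSS (log2 -1.07, SE 0.22, adjusted p = 0.0275), and Hmox1, heme oxygenase, rose from 0.04 and -0.22 to 1.14 and 0.66 (log2 0.99, SE 0.20, adjusted p = 0.0252). Ugt calls numbered 0, 3, 1 and 2, P450 and esterase calls 1, 0, 0 and 1, and glutathione calls 0, 0, 0 and 2 without UT 1, UT 2, DSS 1 and DSS 2.

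Genes of the circadian clock changed in both directions. The clock is a loop in which the activators BMAL1, encoded by Arntl, and CLOCK or NPAS2 drive repressors of their own action, and its genes swing with the hour of the day in the gut. Of 18 tested 3 rose and 5 fell, with a median of -0.58. Dbp, an output gene of the loop, stood at 2.34 and 4.63 in UT and 0.40 and 0.20 in DSS. UT 2 was more than 2 units above UT 1, and both were above DSS (log2 -3.18, SE 0.61, adjusted p = 0.0221). Nr1d2, the repressor REV-ERB beta, stood at -0.26 and 0.75 in UT and -2.17 and -2.38 in DSS (log2 -2.52, SE 0.35, adjusted p = 0.00938), Per3 at -4.08 and -3.32 in UT and -6.03 and -5.91 in DSS (log2 -2.27, SE 0.30, adjusted p = 0.00777) and Tef, another output gene, at 1.38 and 2.38 in UT and -0.50 and -0.27 in DSS (log2 -2.26, SE 0.34, adjusted p = 0.0116). In all of these UT 2 was the highest array. Of the 3 activators 2 rose, Arntl at 0.73 and 0.24 in UT and 1.49 and 1.71 in DSS (log2 1.12, SE 0.23, adjusted p = 0.029) and Npas2 at -4.27 and -4.65 in UT and -3.14 and -2.90 in DSS (log2 1.44, SE 0.20, adjusted p = 0.00901), with UT 2 the lowest in both. Clock itself changed by -0.29 (adjusted p = 0.545). Nr1d1, the repressor REV-ERB alpha, differed by 2 units between the UT arrays and did not pass, at -1.66 and 0.62 in UT and -2.40 and -2.37 in DSS (log2 -1.86, SE 0.72, adjusted p = 0.162). Per2, at -0.17 and -0.52 in UT and -2.36 and -1.77 in DSS (log2 -1.72, SE 0.33, adjusted p = 0.0215), and Nfil3, at 0.84 and 0.14 in UT and 2.17 and 2.07 in DSS (log2 1.63, SE 0.27, adjusted p = 0.015), were the other calls, named after their values were seen. The labels state no hour of collection, so treatment and hour cannot be told apart in these genes. Without UT 1, UT 2, DSS 1 and DSS 2 the rises numbered 2, 0, 1 and 1 and the falls 4, 2, 0 and 4. The E-box CACGTG, the site of BMAL1 and CLOCK, was searched after the data were seen and stood in 6 of 20 clock gene promoters (30%), against 9.14% of all. Of 5 tested clock genes with it 0 rose and 1 fell, with a median of -0.56, and of 10 without it 3 rose and 3 fell, with a median of -0.71.

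Some genes crossed the detection limit. With a probe well above background on both arrays of a group and on none of the other, 520 genes were on in DSS alone and 136 in UT alone, and of these 79 and 50 were called, 32 and 20 of them with a symbol. Mybph, a myosin-binding protein, was on in DSS alone, from -6.59 and -6.90 to -3.50 and -4.60, and rose at least 3.96-fold (adjusted p = 0.00747). Adamtsl2, a matrix protein that binds latent TGF-beta, rose at least 3.67-fold (adjusted p = 0.0201), Tspan11, a tetraspanin, at least 3.42-fold (adjusted p = 0.0322), Dppa3, known from early embryos, at least 3.31-fold (adjusted p = 0.0161), and Kcns1, a potassium channel subunit, at least 3.16-fold (adjusted p = 0.0284). Among genes on in UT alone, Slc13a1, a sulfate transporter, fell at least 3.7-fold from -3.39 and -4.97 (adjusted p = 0.0361). The largest bound was that of Hamp.

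The response was set against that of ATF6bKO colon to the same treatment, to test what may differ between the knockouts. Each knockout had its own scan, so genotype and scan cannot be told apart in this difference. Limma called a difference between the 2 responses in 0 of 23352 genes (0% called), the lowest adjusted p was 0.0742, and 1869 genes (8.00%) had an unadjusted p under 0.05. Of the 1487 genes called in ATF6aKO, 1446 (97.2%) had a change of the same sign in ATF6bKO. The share of same signs among all genes was not counted. Without ATF6bKO DSS 1 the difference passed in 84 genes, 6 of them more positive in ATF6aKO and 78 more negative, and ATF6bKO DSS 2, the array then left, is the 1 with the highest summed squamous level, 6.49 against 2.89 in ATF6bKO DSS 1 and 1.84 and 1.66 in its UT. The part of squamous tissue in those differences was not tested.

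Side by side, several lists had smaller changes in ATF6aKO and lists of muscle and fibroblasts larger ones, with 0 differences called. Over all genes the median difference, ATF6aKO minus ATF6bKO, was 0.10. Members of a list are not independent of each other, so counts of them by direction are a description and no test of genotype. The median of the neutrophil list was 1.48 in ATF6aKO and 3.03 in ATF6bKO, and all 20 tested members had the smaller value in ATF6aKO. S100a8 changed by 3.97 and 8.60 (difference -4.62, SE 1.20, adjusted p = 0.367). Medians of T and NK cell genes were 0.80 and 2.66, of interferon-stimulated genes 0.67 and 2.23, and of antigen presentation 0.62 and 2.23. Cxcl10, an interferon-induced chemokine named after its values were seen, changed by 1.66 and 4.88 (difference -3.22, SE 0.42, adjusted p = 0.145). Smooth muscle genes had medians of 0.57 in ATF6aKO and -0.05 in ATF6bKO, and 0 of 12 members had the lower value in ATF6aKO. Their summed level was 9.85 and 9.86 in UT and 10.5 and 10.4 in DSS of ATF6aKO, against 10.3 and 10.2 in UT and 10.04 and 10.6 in DSS of ATF6bKO. Fibroblast and matrix genes had medians of 0.85 and 0.48, and 3 of 22 had the lower value in ATF6aKO. The part of tissue make-up in the differences of the immune lists was not tested. ER chaperones had a median of 0.12 in ATF6aKO and 0.56 in ATF6bKO, and 19 of 20 members had the lower value in ATF6aKO. Hspa5 changed by 0.70 and 0.89, a difference smaller than its error (difference -0.19, SE 0.39, adjusted p = 0.946), and Calr by 0.55 and 0.73 (difference -0.18, SE 0.36, adjusted p = 0.945).

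Other genes had opposite or unequal values. Those of the clock had large differences: Dbp changed by -3.18 and 0.81 (difference -3.99, SE 0.86, adjusted p = 0.302), Nr1d2 by -2.52 and 0.69 (difference -3.21, SE 0.50, adjusted p = 0.279) and Arntl by 1.12 and -0.78 (difference 1.90, SE 0.33, adjusted p = 0.302). Adamts4 rose in ATF6aKO by 3.54 and changed by 0.26 in ATF6bKO (difference 3.28, SE 0.74, adjusted p = 0.318), Ereg by 3.41 and 1.23 (difference 2.18, SE 0.64, adjusted p = 0.436), and Kcne2 by -5.18 and -2.76 (difference -2.43, SE 0.73, adjusted p = 0.441). Creb3l4, the goblet cell relative of ATF6, changed by -1.18 and 0.02 (difference -1.20, SE 0.27, adjusted p = 0.326). None of these passed the test of the difference. Crypt genes had medians of -0.90 in ATF6aKO and -0.83 in ATF6bKO, and cell cycle genes of -1.46 and -1.89. Matrix proteases and their inhibitors had medians of 1.27 and 1.29, and 15 of 22 members had the lower value in ATF6aKO. Within that list the metalloproteinases had medians of 1.35 and 2.52, the inhibitors 0.90 and 2.03, and the Adamts genes 1.36 and 0.62.

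**Figure D5:**
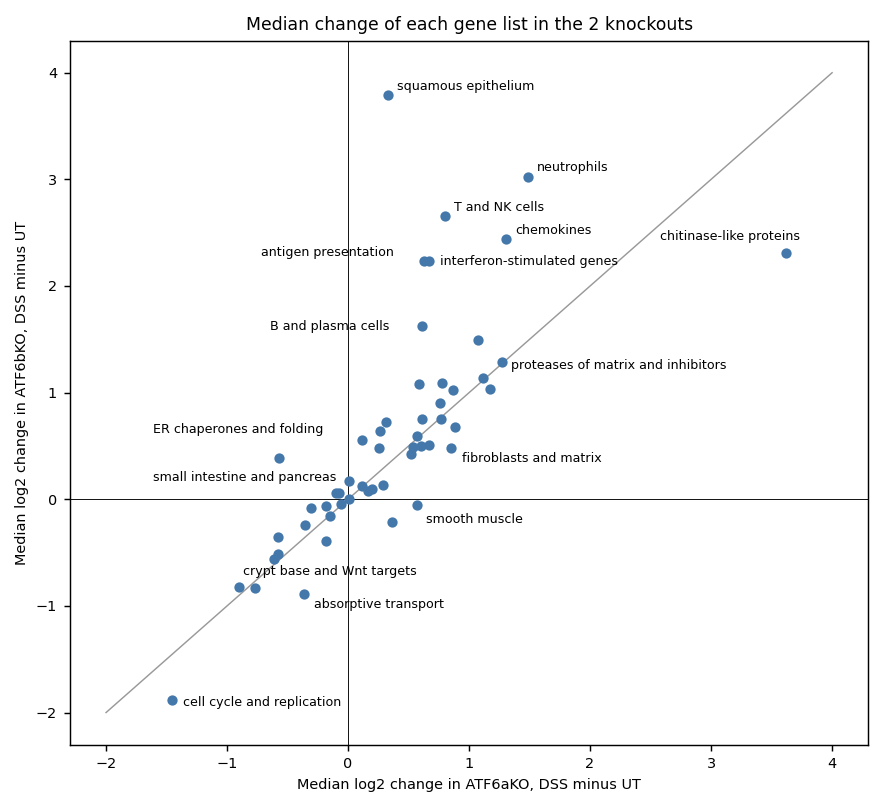
Median log2 change, DSS minus UT, of each of the 53 gene lists in ATF6aKO (x axis) and ATF6bKO (y axis), each point a list, with a grey line where both are equal. Neutrophil (1.48 and 3.03), T and NK cell, interferon and squamous lists lie above the line, and crypt and protease lists lie close to it; the difference was called in 0 genes.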

How the data were processed

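Per the file headers, the authors scanned 12 single-dye Agilent arrays and quantified spot intensity with Agilent's Feature Extraction software (10.7.1.1, per the submitters' processing notes), whose processed signal is background-subtracted. Control spots and outlier-marked spots were left out here. Levels are log2 ratios of the processed signal to the 75th percentile of the array. Probes well above background on both arrays of a group were kept (30428 of 41174), and the brightest probe stood for a gene. Accessions were named through RefSeq (GRCm38.p6), which matched 60.3% of probes, and 62.0% of the 23352 genes tested have a symbol. Differences were tested with limma 3.58.1 in R 4.3.3 on all 12 arrays with 6 group means, with Benjamini-Hochberg adjustment and a threshold of 0.05; the method was tested on simulated data. WT labels conflict between fields, so WT arrays, grouped by title, only add to the spread. The authors' deposited log2 value table, whose ATF6aKO replicate columns are exchanged, was an alternative, as were normexp (on median spot intensity with offset 50), quantile and median scaling, filters, probe means, a variance trend, a replicate block and omissions of arrays. Replicate numbers did not pair the samples (correlation 0.075). With 2 against 2 arrays an exact permutation test cannot go below p = 0.333. Named genes were Atf6, Atf6b, the 15 largest called changes each way (at least a doubling, groups not overlapping, above background in the brighter group), the first 3 and the 6 largest of each list, up to 8 detection switches each way and the 5 largest replicate differences each way; other names are marked in the text, and a few genes that the rule names are not reported here. The members and lists were chosen with earlier results of these data known.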

Additional observations from a re-analysis of the deposited data

How the results depend on the processing

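The count of genes that changed with DSS in ATF6aKO was 1487 and stayed within 1.5 times of it under quantile normalization, median scaling, normexp correction, the mean of probes, the strict filter, a variance trend and the authors' value table. It was 566 with only the 4 ATF6aKO arrays, 698 without a filter on dim probes, 603 with a replicate block, 738 without the ATF6bKO arrays and 2926 without the WT arrays. Leaving out an array in turn gave 183 to 3480. The count of genes whose response differed between the knockouts was 0, and it was 1 with the authors' value table, 1 with median scaling, 5 with quantile normalization and 4 without the WT arrays. Leaving out an array gave 0 to 84. The cause of these shifts was not tested. The replicate numbers did not pair the samples, and the replicate block, which spends degrees of freedom, moved the count of calls to 603. Of the 30 largest changes, 12 were not called with only the 4 arrays, 8 with normexp correction, 3 with the replicate block, 2 without the ATF6bKO arrays, 2 without the filter and 1 each with quantile normalization, the mean of probes, the value table and no WT arrays, and 0 took the other sign in any setting run. Dim probes limit precision: genes near the detection limit have only lower bounds for their change. Some single genes took the other sign. The change of Atf6 was 0.164 with the mean of its probes, 0.142 with normexp correction and -0.12 to 0.0679 without an array. That of Atf6b was -0.138 with median scaling and -0.10 to 0.117 without an array, and those of Cxcl3 and Mmp7 were 0.305 and 0.0314 with normexp correction. Without an array in turn the change of Ido1 was -0.13 to 3.57.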
